A study of Mus musculus with 6 samples.

Results

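Cytochromes P450 of families 1, 2 and 3 are the membrane-bound heme enzymes that carry out the first, oxidative step in the clearance of drugs, dietary compounds, steroids and many fatty acid derivatives. They sit in the endoplasmic reticulum of hepatocytes, take electrons from the reductase encoded by Por, and are induced through the nuclear receptors CAR (Nr1i3) and PXR (Nr1i2) and, for the Cyp1 genes, through the aryl hydrocarbon receptor (Ahr). In mice these genes lie in tandem clusters of close paralogs, and several differ between the sexes under the control of growth hormone. The genes described here were all those whose symbol on the array opens with Cyp1, Cyp2 or Cyp3 and a subfamily letter, pseudogenes left out and 1 probe set a gene kept, the one with the highest mean over all arrays. They number 58 of 22180 genes tested, read by 61 probe sets in all, and fall into 17 subfamilies on 9 chromosomes.

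Liver RNA was hybridised to 6 one-colour Affymetrix arrays, 1 for each male mouse: 3 were Balb/c and 3 were of the Balb/cBy substrain, with no transgene, knockout or drug named in the labels. Every animal was 20 weeks old, lived in a cage of its own, and was fed for 12 weeks, from an age of 8 weeks, on food in which fat supplied 58% of the energy. Both substrains received the diet and no other diet was analysed here, so the values compare the substrains on this diet only. Arrays of a group are labelled biological replicates. Levels are log2 values, differences are Balb/cBy minus Balb/c on that scale with a moderated standard error (SE), and a test was passed at an adjusted p of 0.05 over all genes.

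In the livers of these mice the drug-metabolising P450 genes had differences on both sides of 0, and no gene passed the test of a difference between them. Of the 58 genes, 0 passed the test in limma, where 0% of all genes did, and the adjusted p of each was 0.999. The log2 differences ran from -0.77 for Cyp3a25 to 0.67 for Cyp2c40. They were above 0 for 27 genes and below 0 for 31, that is 46.6% above 0, where 49.1% of all genes tested were. Leaving out Balb/c replicate 2 gave 21 genes above 0, while leaving out Balb/c replicate 3 gave 39. Their median was -0.01, and that of all genes was -0.00. Cyp2d12, Cyp2c54 and Cyp2c23 had an unadjusted p below 0.05, 3 genes or 5.17%, where 3.76% of all genes had one. For 2 of them Balb/cBy was higher (2.59% of all genes) and for 1 it was lower (1.16%). Values of the substrains did not overlap for 6 genes, or 10.3%, where 7.83% of all genes did not overlap. Cyp2c54, Cyp2c68, Cyp2d12 and Cyp3a13, or 6.9%, lay higher in all Balb/cBy arrays than in all Balb/c arrays (4.32% of all genes), and Cyp2c65 and Cyp2c66, or 3.45%, lay lower (3.51%). These shares are near the background. Among the 38 genes above the median level, 3 (7.89%) did not overlap, against 8.59% of all genes at that level, and 47.4% had differences above 0, against 56.9%. Differences beyond 0.5 in size were more frequent than among all genes, with 4 of 58 (6.9%) against 1.16%, 1 above 0.5 (0.812% of all genes) and 3 below -0.5 (0.347%). Above the median level the count was 3 of 38, against 1.73%. None of these 4, Cyp2c40, Cyp2c23, Cyp2c38 and Cyp3a25, separated the substrains. The 95% confidence interval of the difference lay within -0.5 and 0.5 for 34 genes and within -1 and 1 for 50, so a difference of 1 or more was outside the interval for most of them.

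**Figure D1:**
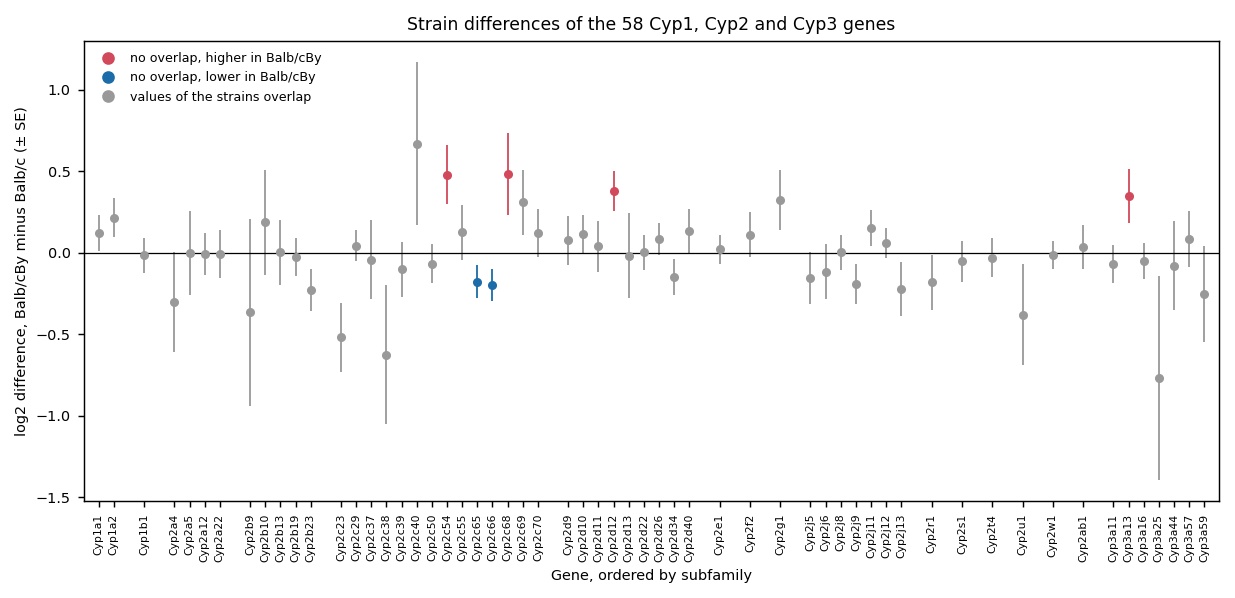
Log2 difference between Balb/cBy and Balb/c (y axis, ± SE, n = 3 each) for each of the 58 genes (x axis, by subfamily); coloured points mark the 6 genes whose values did not overlap. The points lie on both sides of 0, from -0.77 for Cyp3a25 to 0.67 for Cyp2c40, and the widest bar belongs to Cyp3a25.

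Individual mice of either substrain spread more widely in these genes than in the array as a whole. The range over the 6 arrays was above 1 on the log2 scale, a factor of 2 between the lowest and the highest mouse, for 12 of the 58 genes (20.7%), where 3.79% of all genes had such a range. Among genes above the median level the shares were 28.9% of 38 and 5.73%. The median SD within a group was 0.22, against 0.14 for all genes. Such a spread was not particular to these families: the median SD in Balb/c and Balb/cBy was 0.21 and 0.16 for them, 0.22 and 0.27 for 19 genes of other P450 families, and 0.41 and 0.27 for 13 male-biased liver genes. The widest ranges belonged to Cyp3a25 (2.86, or 7.25-fold), Cyp2b9 (2.34, 5.06-fold), Cyp2c40 (2.31, 4.96-fold) and Cyp2c38 (2.28, 4.86-fold). Cyp2u1, Cyp2a4, Cyp2b10, Cyp3a59, Cyp2c68, Cyp2c23, Cyp2d13 and Cyp2c54 followed, with ranges from 1.52 to 1.07. These counts are descriptions, with no test.

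**Figure D2:**
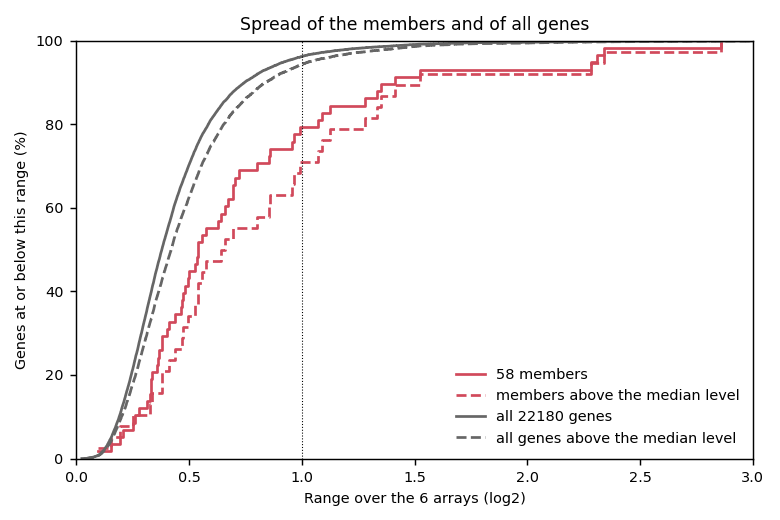
Cumulative share of genes (y axis, %) by the range of their log2 level over the 6 arrays (x axis), for the 58 P450 genes and all 22180 genes, with dashed lines for genes above the median level. The lines of the P450 genes lie to the right, with 20.7% of them and 3.79% of all genes beyond the dotted line at 1.

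The high and low mice were not the same for all genes, yet some arrays recurred. Balb/c replicate 2 was the lowest of the 6 for 25 genes (43.1%, against 17.3% of all genes) and the highest for 1. Balb/c replicate 3 and Balb/cBy replicate 2 were the highest for 17 genes each (29.3%, against 16.3% and 21.7% of all genes). Balb/cBy replicate 1 was the highest for 12 and the lowest for 10. The genes' mean deviation from their own means over the arrays was -0.21 in Balb/c replicate 2 and 0.17 in Balb/c replicate 3, and 0.06, -0.05, 0.09 and -0.07 in the other arrays, from Balb/c replicate 1 to Balb/cBy replicate 3. The 2 arrays farthest apart in these genes are thus both Balb/c mice.

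**Figure D3:**
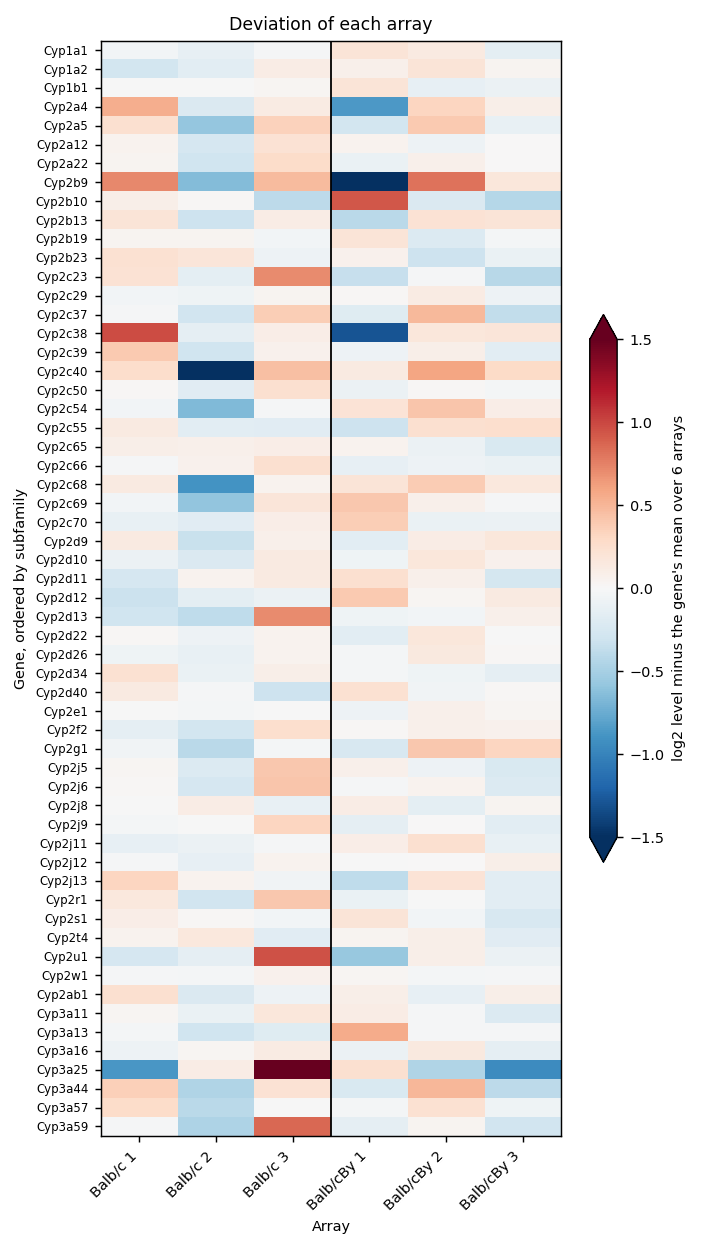
Deviation of each array (columns) from the mean of the gene over 6 arrays (log2, colour scale) for the 58 genes (rows, by subfamily). The darkest cells are single arrays, such as Balb/c replicate 2 for Cyp2c40, Balb/c replicate 3 for Cyp3a25 and Balb/cBy replicate 1 for Cyp2b9 and Cyp2c38.

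Some arrays also stood apart in other gene lists. All 6 array medians lay between 7.66 and 7.74, and hepatocyte markers, among them Alb and Apoa1, were close to level, 9 of 10 measured, with mean deviations from -0.06 to 0.06. Balb/c replicate 3 had a mean deviation of -0.74 in 17 acute phase genes, where the other arrays lay between -0.07 and 0.37. The same array lay at -0.39 in 12 markers of Kupffer cells and other macrophages, and at 0.55 in 4 markers of exocrine pancreas, where the others lay between -0.27 and -0.01. The chymotrypsinogen gene Ctrb1, one of these markers, stood at 9.69 there and between 8.19 and 8.45 in the others. Balb/c replicate 2, the array with the lowest P450 levels, was at 0.28 in the acute phase genes, and Balb/cBy replicate 1 at 0.37. Whether inflammation, other cells or tissue had a part in the P450 values was not tested. In whole liver, fewer cells of a type and less RNA per cell cannot be told apart.

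Because the largest differences belonged to clustered paralogs, the 250 bases before the start of transcription are shown for some of these genes. Cyp2c68, Cyp2c40 and Cyp2c69 have positive differences and follow one another among the genes measured. Cyp2b10, Cyp2b9 and Cyp2b13 diverged in Balb/cBy replicate 1. Cyp3a25 and Cyp3a59 peaked in Balb/c replicate 3, as did Cyp3a11, which is not shown. Sequences are from RefSeq on GRCm38.p6, a C57BL/6J genome, and not from these animals, and 50 of the 58 genes were matched by gene ID. Capitals mark letters of 5 short motifs searched on both strands. The box that positions the start of transcription was searched as TATAAA. The core of nuclear receptor sites was searched as AGGTCA, and that bound by the aryl hydrocarbon receptor with ARNT as GCGTG. Part of the C/EBP site was searched as GCAAT, and part of the HNF1 site as GTTAAT. No marked motif overlaps another in these sequences. The windows are chr19:39741102-39741351, chr19:39812815-39813064 and chr19:39886770-39887019 on the minus strand, chr7:25897408-25897657, chr7:26173159-26173408 and chr7:26061245-26061494 on the plus strand, chr5:146009618-146009867 on the minus strand and chr5:146079008-146079257 on the plus strand.
Cyp2c68: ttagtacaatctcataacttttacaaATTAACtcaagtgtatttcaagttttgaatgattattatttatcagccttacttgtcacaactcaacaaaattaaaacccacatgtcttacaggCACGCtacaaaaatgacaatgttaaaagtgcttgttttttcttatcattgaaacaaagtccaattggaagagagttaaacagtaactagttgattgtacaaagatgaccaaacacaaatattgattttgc
Cyp2c40: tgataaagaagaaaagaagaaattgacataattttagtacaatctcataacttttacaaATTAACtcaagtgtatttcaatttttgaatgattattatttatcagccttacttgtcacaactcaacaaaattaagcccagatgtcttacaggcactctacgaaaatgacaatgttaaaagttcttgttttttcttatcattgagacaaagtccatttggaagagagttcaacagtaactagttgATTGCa
Cyp2c69: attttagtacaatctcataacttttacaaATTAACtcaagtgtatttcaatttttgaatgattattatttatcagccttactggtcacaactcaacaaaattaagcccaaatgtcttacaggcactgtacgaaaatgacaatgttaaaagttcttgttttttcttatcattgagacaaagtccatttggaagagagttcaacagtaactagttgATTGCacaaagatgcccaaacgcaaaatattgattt
Cyp2b10: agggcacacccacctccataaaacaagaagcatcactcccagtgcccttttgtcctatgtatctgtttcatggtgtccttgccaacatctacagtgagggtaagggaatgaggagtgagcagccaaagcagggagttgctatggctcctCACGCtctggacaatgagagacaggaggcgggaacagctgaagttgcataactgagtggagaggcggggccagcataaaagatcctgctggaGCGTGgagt
Cyp2b9: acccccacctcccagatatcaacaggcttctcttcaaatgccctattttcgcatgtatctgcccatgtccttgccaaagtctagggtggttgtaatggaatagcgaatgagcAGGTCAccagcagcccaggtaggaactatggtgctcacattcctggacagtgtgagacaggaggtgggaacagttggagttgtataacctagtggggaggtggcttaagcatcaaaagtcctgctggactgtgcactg
Cyp2b13: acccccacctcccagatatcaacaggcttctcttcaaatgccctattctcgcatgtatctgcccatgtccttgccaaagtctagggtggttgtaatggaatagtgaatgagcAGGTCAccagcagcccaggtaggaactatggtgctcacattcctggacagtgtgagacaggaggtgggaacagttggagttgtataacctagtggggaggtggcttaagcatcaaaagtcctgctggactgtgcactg
Cyp3a25: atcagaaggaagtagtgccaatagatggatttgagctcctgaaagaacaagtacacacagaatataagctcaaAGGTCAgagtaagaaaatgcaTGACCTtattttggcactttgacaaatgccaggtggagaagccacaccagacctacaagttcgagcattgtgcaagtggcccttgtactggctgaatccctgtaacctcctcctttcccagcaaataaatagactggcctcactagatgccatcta
Cyp3a59: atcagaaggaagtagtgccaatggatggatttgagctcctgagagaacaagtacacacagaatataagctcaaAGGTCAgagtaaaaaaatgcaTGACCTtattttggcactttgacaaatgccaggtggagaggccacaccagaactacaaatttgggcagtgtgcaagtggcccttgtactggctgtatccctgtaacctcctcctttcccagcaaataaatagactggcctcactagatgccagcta
The Cyp2c windows each hold the HNF1 core on the opposite strand, and Cyp2c40 and Cyp2c69 also hold the C/EBP core close to the start. Cyp2b10 has the aryl hydrocarbon receptor core at 2 places and Cyp2b9 and Cyp2b13 have none, while these last hold the nuclear receptor core between 138 and 133 bases before the start. Cyp2b19 and Cyp2b23, not shown, also hold the nuclear receptor core and lack the aryl hydrocarbon receptor core. Cyp2b19 was highest in Balb/cBy replicate 1, like Cyp2b10, and Cyp2b23 in Balb/c replicate 1. In Cyp3a25 and Cyp3a59 the nuclear receptor core occurs on both strands, at 177 to 172 and at 156 to 151 bases before the start. It does so too in Cyp3a57, highest in Balb/c replicate 1, at 174 to 169 and 153 to 148 bases. Cyp3a11 holds it only at 162 to 157 bases. A link of motifs with levels was not tested.

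Over all 53 promoters of these genes (3 genes have 2 starts), the box TATAAA was present in 41.5%, where 12.4% of all 32851 promoters in the table had it. The nuclear receptor core was present in 30.2% against 14.0%, the C/EBP core in 32.1% against 23.1% and the HNF1 core in 11.3% against 6.43%. The aryl hydrocarbon receptor core went the other way, with 18.9% against 28.2%. A match of letters is a description and not a binding site. The windows are also not separate units. Those at the 2 starts of Cyp3a25, and of Cyp2j13, overlap, so the same motifs were counted at both. The windows of close paralogs were nearly the same sequence: 99.2% of aligned positions were identical for Cyp2b9 and Cyp2b13, 97.6% for Cyp2a4 and Cyp2a5, 95.6% for Cyp3a25 and Cyp3a59 and 91.3% for Cyp2c68 and Cyp2c69, while Cyp2b10 shared 70.0% with Cyp2b9. Of the 6 pairs of a subfamily at 90% or more, a mark set after the values were seen, 3 had their lowest level in the same array and 3 their highest. Of the 129 other pairs, 37 (28.7%) had the same lowest and 20 (15.5%) the same highest array. Paralogs so alike can also share signal between their probes, and no probe sequences were used here, so the levels of single members of a cluster are uncertain.

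Of the 3 Cyp1 genes, which oxidise planar aromatic compounds and, for Cyp1a2, caffeine, both Cyp1a genes had differences above 0 and Cyp1b1 one below, and 0 passed. Cyp1a2 stood at 12.75, 12.87 and 13.13 in Balb/c replicates 1 to 3 and at 13.10, 13.22 and 13.06 in Balb/cBy, a difference of 0.21 (SE 0.12) that was 0.13 without Balb/c replicate 1. The groups overlapped through Balb/c replicate 3. Cyp1a1, the strongly inducible member, stood at 8.14, 8.06 and 8.16 in Balb/c and 8.37, 8.32 and 8.03 in Balb/cBy, a difference of 0.12 (SE 0.11), or from 0.06 to 0.22 without each array in turn. Cyp1b1, a steroid and arene hydroxylase of mesenchymal cells, differed by -0.02 (SE 0.11).

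The Cyp2a genes hydroxylate coumarin (Cyp2a5), testosterone (Cyp2a4) and bile acids (Cyp2a12), and all 4 had differences below 0, with a median of -0.01 and the lowest, of Cyp2a4, at -0.30. That median ran from -0.23 without Balb/c replicate 2 to 0.11 without Balb/c replicate 3. Cyp2a5 stood at 10.47, 9.65 and 10.57 in Balb/c and at 9.95, 10.62 and 10.12 in Balb/cBy, and its means were equal to the second decimal (10.23 ± 0.50 and 10.23 ± 0.35, SD, n = 3 each). Cyp2a4, known as more abundant in females, had the widest spread of them. It stood at 11.77, 11.01 and 11.35 in Balb/c and at 10.36, 11.55 and 11.31 in Balb/cBy, with a difference of -0.30 (SE 0.31), and of 0.05 without Balb/cBy replicate 1, its lowest array. Cyp2a12 and Cyp2a22 both differed by -0.01, with SE of 0.13 and 0.15.

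The 5 Cyp2b genes had a median difference of -0.03, from -0.37 for Cyp2b9 to 0.19 for Cyp2b10, and here a single mouse went opposite ways. Cyp2b10, the classical target of CAR, stood at 11.26, 11.18 and 10.78 in Balb/c and at 12.09, 10.94 and 10.74 in Balb/cBy. Its highest array was Balb/cBy replicate 1, and without it the difference turned from 0.19 (SE 0.32) to -0.23. In Cyp2b9, a female-biased gene, the same mouse had the lowest level: 10.28, 8.91 and 10.02 in Balb/c against 8.02, 10.36 and 9.72 in Balb/cBy, a difference of -0.37 (SE 0.58), or 0.30 without that mouse. Cyp2b13, its paralog with the nearly identical promoter window, had its lowest value there too, at 7.46, next to 8.09 and 8.07 in the other Balb/cBy arrays and 8.07, 7.57 and 7.98 in Balb/c. Both genes had their next lowest value in Balb/c replicate 2. Cyp2b23 had a difference of -0.23 (SE 0.13) at 7.69, 7.65 and 7.39 in Balb/c and 7.53, 7.16 and 7.37 in Balb/cBy, which was -0.13 without Balb/cBy replicate 2, and the keratinocyte gene Cyp2b19 one of -0.03 (SE 0.12).

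Cyp2c is the largest subfamily here, with 14 genes that oxidise arachidonic acid, retinoids, bile acids and drugs. Its median difference was -0.00, with 7 genes above 0 and 7 below. Of its 14 genes 4 did not overlap, 2 higher and 2 lower in Balb/cBy, where 7.83% of all genes did not overlap. Cyp2c54, an arachidonic acid epoxygenase of liver, stood at 12.25, 11.63 and 12.28 in Balb/c and at 12.50, 12.70 and 12.39 in Balb/cBy. The difference was 0.48 (SE 0.18), or 1.39-fold, with an exact permutation p of 0.1, the smallest that 3 against 3 arrays allow. Without Balb/c replicate 2, its lowest array, the difference was 0.27. Cyp2c68 stood at 10.32, 9.29 and 10.24 in Balb/c and at 10.38, 10.57 and 10.35 in Balb/cBy, with a difference of 0.48 (SE 0.25), or 0.15 without that array.

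Cyp2c40, the next measured gene after Cyp2c68 on the chromosome, had the largest positive difference of the 58 genes, at a level below the lower quartile of all genes. Its values were 6.44, 4.45 and 6.63 in Balb/c and 6.30, 6.76 and 6.46 in Balb/cBy, a difference of 0.67 (SE 0.50) that was -0.02 without Balb/c replicate 2. Cyp2c69, the next one measured, stood at 8.74, 8.19 and 8.96 in Balb/c and at 9.19, 8.86 and 8.77 in Balb/cBy (0.31, SE 0.20, or 0.09 without that array). In all of Cyp2c68, Cyp2c40, Cyp2c69 and Cyp2c54 the lowest array was Balb/c replicate 2. Cyp2c50, measured next after Cyp2c54, was also lowest there but spread less, at 12.47, 12.28 and 12.69 in Balb/c and 12.37, 12.46 and 12.42 in Balb/cBy.

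**Figure D4:**
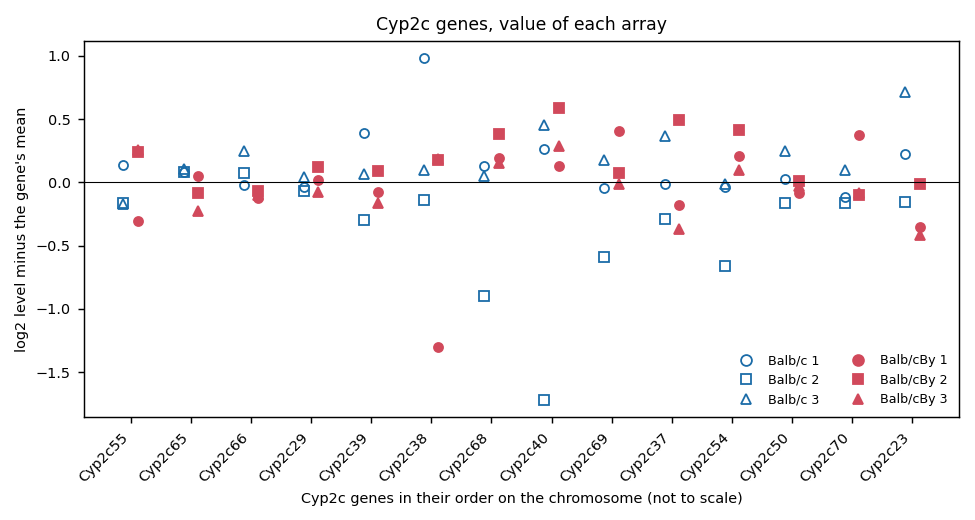
Log2 level of each array minus the mean of the gene (y axis) for the 14 Cyp2c genes in their order on the chromosome (x axis, not to scale), open symbols for Balb/c and filled for Balb/cBy. The open squares of Balb/c replicate 2 lie lowest in Cyp2c68, Cyp2c40, Cyp2c69 and Cyp2c54, and the filled circle of Balb/cBy replicate 1 lies lowest in Cyp2c38.

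Other Cyp2c genes had negative differences. Cyp2c23, an arachidonic acid epoxygenase, stood at 10.23, 9.86 and 10.72 in Balb/c and at 9.66, 10.00 and 9.59 in Balb/cBy. Its difference of -0.52 (SE 0.21) had a 95% interval from -1.01 to -0.03, its groups overlapped through Balb/c replicate 2, and it was -0.29 without Balb/c replicate 3. Cyp2c38 stood at 11.06, 9.94 and 10.18 in Balb/c and at 8.78, 10.25 and 10.26 in Balb/cBy (-0.63, SE 0.43), and the difference was -0.14 without Balb/cBy replicate 1. Cyp2c65 and Cyp2c66, genes known from the gut, did not overlap between the substrains, but their means lay below the lower quartile of all genes, at 7.25. Cyp2c65 stood at 5.84, 5.84 and 5.86 against 5.81, 5.67 and 5.53 (-0.18, SE 0.10, or -0.11 without Balb/cBy replicate 3), and Cyp2c66 at 4.59, 4.68 and 4.86 against 4.49, 4.54 and 4.51 (-0.20, SE 0.10, or -0.12 without Balb/c replicate 3). Cyp2c29 was among the steadiest of the subfamily, at 13.66, 13.63 and 13.74 in Balb/c and 13.72, 13.82 and 13.62 in Balb/cBy (0.04, SE 0.09). Cyp2c70, which makes the muricholic acids of mouse bile, differed by 0.12 (SE 0.15), and Cyp2c55, Cyp2c39, Cyp2c50 and Cyp2c37 by 0.13, -0.10, -0.07 and -0.04.

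**Figure D5:**
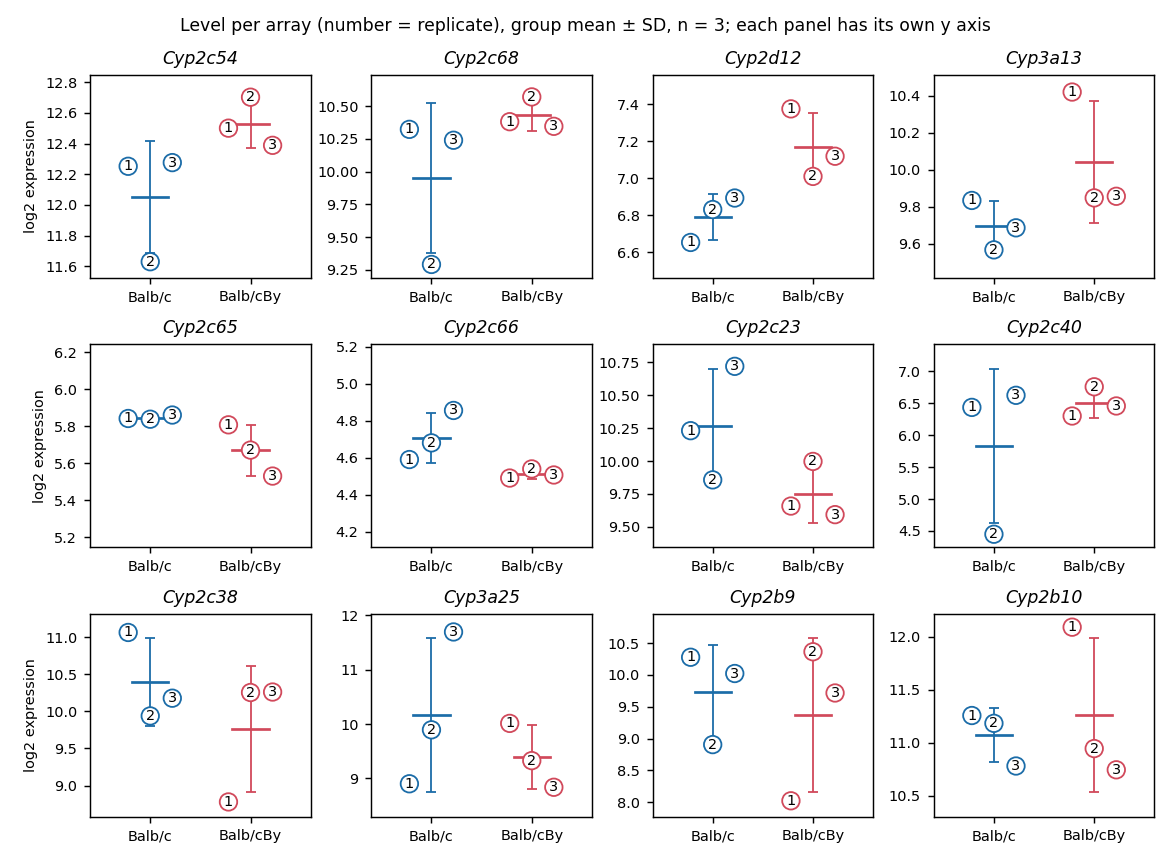
Log2 level (y axis, own scale in each panel) of 12 genes in each array, numbered by replicate, with the mean ± SD of each substrain (n = 3). The first 6 panels show the genes without overlap, and the others show genes in which 1 mouse lies far from its group, such as Balb/c replicate 2 at 4.45 in Cyp2c40 and Balb/c replicate 3 at 11.70 in Cyp3a25, with Cyp2c23 beside them.

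Of the 9 Cyp2d genes, the mouse relatives of the human debrisoquine hydroxylase, 7 had differences above 0, with a median of 0.08. Cyp2d12 had the smallest unadjusted p of the 58 genes (0.0151, adjusted p 0.999 in limma). It stood at 6.65, 6.83 and 6.89 in Balb/c and at 7.38, 7.01 and 7.12 in Balb/cBy, without overlap, a difference of 0.38 (SE 0.12) at a level below the lower quartile of all genes. Cyp2d9, the testosterone hydroxylase of male liver, stood at 12.93, 12.47 and 12.87 in Balb/c and 12.63, 12.91 and 12.96 in Balb/cBy (0.08, SE 0.15), and at -0.07 without Balb/c replicate 2. Cyp2d34 had the lowest difference of the subfamily, with 8.20, 7.87 and 8.05 in Balb/c and 7.93, 7.91 and 7.84 in Balb/cBy (-0.15, SE 0.11), and the difference was -0.07 without Balb/c replicate 1. Cyp2d13 was high in 1 mouse, Balb/c replicate 3, at 11.78, while the other 5 arrays lay between 10.69 and 11.15. Cyp2d40, Cyp2d10, Cyp2d26, Cyp2d11 and Cyp2d22 differed by 0.13, 0.11, 0.08, 0.04 and 0.00.

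The Cyp2j genes, which epoxidise polyunsaturated fatty acids, had a median difference of -0.12, with 3 of 7 above 0 and 0 without overlap. Cyp2j11 stood at 7.37, 7.40 and 7.48 in Balb/c and 7.59, 7.73 and 7.38 in Balb/cBy (0.15, SE 0.11), with 0.07 without Balb/cBy replicate 2. Cyp2j13 stood at 7.38, 7.11 and 7.01 in Balb/c and 6.68, 7.26 and 6.90 in Balb/cBy (-0.22, SE 0.16), and its difference was -0.09 without Balb/cBy replicate 1, while leaving out Balb/cBy replicate 2 gave -0.38. For Cyp2j9 the values were 7.93, 7.97 and 8.29 in Balb/c and 7.83, 7.98 and 7.81 in Balb/cBy (-0.19, SE 0.12), with -0.08 without Balb/c replicate 3. Cyp2j5, the member best known from liver and kidney, differed by -0.16 (SE 0.16), and Cyp2j6, Cyp2j12 and Cyp2j8 by -0.12, 0.06 and 0.00.

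Single-gene subfamilies of family 2 held the steadiest and some of the most variable genes. Cyp2e1, which oxidises ethanol, acetone and paracetamol, stood at 14.00, 13.98 and 14.00 in Balb/c and 13.93, 14.08 and 14.03 in Balb/cBy, a difference of 0.02 (SE 0.09) with a 95% interval from -0.18 to 0.22. Cyp2f2, a naphthalene-oxidising enzyme of lung and periportal liver, stood at 12.90, 12.76 and 13.28 in Balb/c and 13.06, 13.11 and 13.10 in Balb/cBy (0.11, SE 0.14). Cyp2g1, known from olfactory tissue, stood at 8.16, 7.81 and 8.18 against 7.97, 8.61 and 8.53 (0.32, SE 0.18), and overlapped through Balb/cBy replicate 1, without which the difference was 0.52. It was 0.20 without Balb/c replicate 2 or Balb/cBy replicate 2. Cyp2u1, a fatty acid hydroxylase, stood at 11.48 in Balb/c replicate 3 and between 9.95 and 10.61 in the other arrays, and its difference of -0.38 (SE 0.31) was 0.00 without that mouse. Cyp2r1, a vitamin D 25-hydroxylase, differed by -0.18 (SE 0.17), and Cyp2s1, Cyp2t4, Cyp2w1 and Cyp2ab1 by -0.05, -0.03, -0.01 and 0.04.

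The Cyp3a genes, broad oxidases of drugs and steroids under PXR, had a median difference of -0.07, with 2 of 7 above 0, and the median was 0.02 without Balb/cBy replicate 3 and 0.01 without Balb/c replicate 3. Cyp3a13 was the 1 gene of them without overlap, at 9.83, 9.57 and 9.69 in Balb/c and 10.42, 9.85 and 9.86 in Balb/cBy (0.35, SE 0.17). The gap was narrow, and the difference was 0.16 without Balb/cBy replicate 1. Cyp3a25 had the most negative difference and the widest range of the 58 genes, at 8.90, 9.89 and 11.70 in Balb/c and 10.01, 9.33 and 8.84 in Balb/cBy. The difference of -0.77 (SE 0.63) was -0.01 without Balb/c replicate 3. Cyp3a59, whose promoter window resembles that of Cyp3a25, was also highest in that mouse, at 9.78, where the other arrays lay between 8.45 and 8.96 (-0.25, SE 0.29).

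Cyp3a11, the most studied PXR target of mouse liver, was also highest in Balb/c replicate 3, with a smaller spread. It stood at 12.74, 12.61 and 12.89 in Balb/c and 12.83, 12.70 and 12.50 in Balb/cBy, a difference of -0.07 (SE 0.12). Cyp3a44 and Cyp3a16, known as female-biased, differed by -0.08 (SE 0.27) and -0.05 (SE 0.11), and Cyp3a57 by 0.09 (SE 0.17). Of 7 genes of these families listed here as female-biased, 5 were measured as single genes. Of these, 4 had differences below 0, with a median of -0.08 and no separation of the groups. Without Balb/cBy replicate 1, 4 of the 5 were above 0 instead (median 0.05). Their mean deviation was lowest in Balb/cBy replicate 1, at -0.62, and highest in Balb/cBy replicate 2, at 0.40. In Balb/cBy replicate 1, 13 male-biased liver genes outside these families had a mean deviation of 0.27, and 13 female-biased ones of -0.12. In Balb/c replicate 3, where the female-biased P450 genes were at 0.21, the male-biased genes were at 0.30 and the female-biased ones at -0.05.

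The 8 genes known to be expressed around the central vein, Cyp1a2, Cyp2a5, Cyp2c29, Cyp2c37, Cyp2c50, Cyp2c54, Cyp2e1 and Cyp3a11, had a median difference of 0.01, 4 above 0 and 4 below. That split rested on single mice: 8 were above 0 without Balb/c replicate 3 (median 0.10), and 2 without Balb/cBy replicate 2 (median -0.05). Pericentral genes outside the families had 8 of 14 above 0 and a median of 0.09, with the ammonium transporter Rhbg at 0.36 (SE 0.13) and glutamine synthetase, Glul, at 0.19 (SE 0.09). Periportal genes had 8 of 13 above 0 and a median of 0.05, with Ifitm3 at 0.23 (SE 0.11) and E-cadherin, Cdh1, at 0.25 (SE 0.14). None of these genes passed the test.

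Partners that the P450 enzymes need were measured on the same arrays, and 0 of them passed in either direction. Of the electron donors and membrane partners 5 of 6 were measured, Por itself being not analysed here. Of these 5, 3 were above 0, with a median of 0.02: Cyb5b (0.15), Cyb5a (0.07) and Cyb5r3 (0.02). Without Balb/c replicate 2, 0 were above 0 (median -0.14). Pgrmc1, a heme-binding membrane protein that interacts with P450 enzymes, lay lower in Balb/cBy without overlap, at 12.72, 12.83 and 13.03 in Balb/c and 12.66, 12.44 and 12.45 in Balb/cBy (-0.34, SE 0.12), and its relative Pgrmc2 did as well (-0.18, SE 0.10). Of all genes 3.51% lay lower without overlap. In heme synthesis 5 of 10 genes were above 0, with a median of -0.01. Coproporphyrinogen oxidase, Cpox, stood at 10.42, 10.50 and 10.55 in Balb/c and 10.11, 9.94 and 10.08 in Balb/cBy, without overlap. Its difference of -0.45 (SE 0.09) had an adjusted p of 0.668 in limma. Alas1, the rate-limiting enzyme, differed by 0.44 (SE 0.28), or 0.16 without Balb/cBy replicate 2, where it stood at 12.61. In heme breakdown 3 of 4 genes were above 0, with Hmox1 at 0.41 (SE 0.19; 0.23 without Balb/cBy replicate 3) and Hmox2 at 0.26 (SE 0.14).

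The receptors that induce these genes overlapped between the substrains. Nr1i3 stood at 10.94, 10.67 and 11.45 in Balb/c and 10.86, 10.96 and 10.94 in Balb/cBy (-0.10, SE 0.18), Nr1i2 differed by 0.05 (SE 0.15) and Ahr by 0.11 (SE 0.13). Of 11 receptors and partners 7 were above 0, with a median of 0.01, and those with the smallest p were the AHR partner Arnt (0.21, SE 0.11) and the chaperone Hsp90aa1 (0.12, SE 0.13). Of 14 hepatocyte factors 7 were above 0. Cebpa, a factor that maintains hepatocyte gene expression, lay lower in Balb/cBy without overlap, at 11.25, 11.30 and 11.48 in Balb/c and 10.83, 11.01 and 11.10 in Balb/cBy (-0.36, SE 0.11). Foxa3 differed by 0.45 (SE 0.19), or 0.28 without Balb/cBy replicate 2, and Hnf4a by 0.17 (SE 0.12). Of 11 genes of growth hormone signalling and sex bias 6 were above 0, with the smallest p for Trim24 (0.68, SE 0.22) and Socs2 (1.19, SE 0.47), a feedback inhibitor of growth hormone signalling. Without Balb/cBy replicate 2 these differences were 0.41 and 0.55. None passed, each with an adjusted p of 0.999 in limma.

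Genes outside the families that the same receptors control did not pass the test either. Of 10 CAR and PXR targets measured, from 16 listed, 2 were above 0 (median -0.06), or 5 without Balb/c replicate 3 (median 0.01). The transporter Slco1a4 lay lower without overlap, with its lowest value in Balb/cBy replicate 1, at 6.85 (-0.78, SE 0.29, or -0.41 without that mouse). Gstm1 lay higher without overlap (0.17, or 0.04 without Balb/cBy replicate 2). Of all genes 3.51% lay lower and 4.32% higher without overlap. Of 5 AHR targets 2 were above 0 (median -0.12), with Aldh3a1 at -0.20 (SE 0.14) and the quinone reductase Nqo1 at -0.18 (SE 0.15). Inflammatory signals are known to lower P450 RNA, and 11 of 13 cytokine and receptor genes were above 0, with a median of 0.22. Of these 13, Il6, Il1b, Il1rn and Tnf were at 0.09, 0.14, 0.05 and -0.01, with Il1b at -0.22 without Balb/cBy replicate 2. Il1r1 and Osmr, receptors for interleukin-1 and oncostatin M, lay higher in Balb/cBy by 1.19 (SE 0.16) and 0.76 (SE 0.11), without overlap and with adjusted p of 0.166 and 0.186 in limma. Of 17 acute phase genes 16 were above 0, with a median of 0.17, but 11 without Balb/c replicate 3 (median 0.11), and the median was 0.06 without Balb/cBy replicate 1. Among them were Saa4 at 0.27 (SE 0.10) and Orm3 at 1.10 (SE 0.52), or 0.58 without Balb/c replicate 3. The 1 acute phase gene below 0 was Saa3, at -1.41, the lowest difference of all genes tested. This difference ran from -2.88 to -0.63 without each array in turn. The levels of Saa3 spanned 9.37 in Balb/c replicate 3 to 13.88 in Balb/c replicate 1. Markers of other cells did not pass the test either. Of stellate cell and fibroblast markers 9 of 10 were above 0 (median 0.23, or 6 of 10 without Balb/c replicate 3). Among these, Col1a1, Des and Col1a2 were at 0.01, 0.02 and 0.03. Neutrophil markers were above 0 for 5 of 6 (median 0.24) and lymphocyte markers below 0 for 8 of 9 (median -0.13). Their median levels were low, at the 25.6 and 44.1 percentile of all genes. Macrophage markers were above 0 for 7 of 12 and endothelial markers for 5 of 8. Whether any of these had a part in the P450 values was not tested. Other P450 families of liver had 12 of 19 genes above 0 and a median of 0.14 (9 of 19 and -0.00 without Balb/cBy replicate 2), with the bile acid enzyme Cyp7a1 at 1.24 (SE 0.39) and Cyp4f13 at -0.39 (SE 0.14).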

How the data were processed

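Liver RNA of 6 mice was read on 6 one-colour Affymetrix arrays. Per the submitters' processing notes, RMA was used; the deposited table gives 1 log2 signal for each probe set and array. That these are log2 was inferred from their range. For RMA's version, filters and genome build, the sources used here name none. The number of arrays limits the precision. Groups came from the strain in the labels.

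Of 41345 probe sets, 23521 had 1 gene symbol in GEO's platform annotation, which can be old, 1814 had several and 16010 were unnamed here. For 1082 genes with several probe sets the one of highest mean stood for the gene, giving 22180 genes. All 58 P450 symbols matched the reference gene table by gene ID. No filter on low values was applied, and of the 58 genes 44 lay above the lower quartile and 38 above the median of gene means.

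Balb/cBy was compared with Balb/c in limma 3.58.1 (lmFit, eBayes; R 4.3.3), with strain as the only term and Benjamini-Hochberg adjustment over all genes. The scripts were tested on simulated data. Lists are described by counts and medians, with no set test. Exact permutation tests were two-sided. Promoters were aligned with Biopython 1.88.

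Named with values per array were the 12 genes with the smallest p, the extremes of subfamilies of 5 or more, and 9 reference genes; of lists other than cell markers, the 2 with the smallest p. Saa3, Ctrb1 and further single genes that stood apart in 1 mouse were named after their values were seen. The genes and lists were chosen with earlier results of these data known. Alternatives were a replicate block, recentring, repeated quantile normalization, 2 filters on level, the mean of probe sets, another variance model, array weights and leaving out each array. The count of genes with a range above 1, and the values of gene lists outside the families without each array, were added after seeing the data. Same-numbered arrays did not deviate together (correlations of -0.32, -0.20 and -0.23), so no pairing by number was visible, and the labels name none. Such correlations cannot exclude that equal numbers share a batch.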

Additional observations from a re-analysis of the deposited data

How the results depend on the processing

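In none of the 14 alternative settings did any of the 58 genes pass. Without each array in turn 24 of the 58 kept their sign, a count with no share of all genes beside it. The 6 without overlap were among them by construction, since leaving out 1 array cannot turn their sign. With the replicate number as a replicate block, 0 passed and 3 had an unadjusted p under 0.05, as without it. With array weights 7 had one, while 12 of all genes passed at the adjusted p of 0.05. The share of all genes at the unadjusted mark was not computed in either setting, so the 7 cannot be set against it. The count without overlap was 3 of 44 among genes above the lower quartile of level (7.94% of all genes there) and 3 of 38 above the median level (8.59%). It ran from 6 to 15 without each array in turn, where 2 against 3 arrays separate more often by construction (12.9% to 26.9% of all genes). The median of Cyp2b was -0.20 with array weights, and that of Cyp3a was -0.15. Without each array in turn the median ran from -0.23 to 0.11 for Cyp2a, -0.15 to -0.016 for Cyp2b, -0.096 to 0.073 for Cyp2c, -0.24 to 0.010 for Cyp2j, -0.14 to 0.017 for Cyp3a and 0.035 to 0.13 for Cyp2d. Signs turned for Cyp2a5 with recentred arrays (0.015), Cyp2c29 with the mean of its probe sets (-0.047) and Cyp2b10 with array weights (-0.20). Without each array in turn the differences ran from -0.29 to 0.17 for Cyp2a5, -0.23 to 0.45 for Cyp2b10, -0.87 to 0.30 for Cyp2b9, -0.0069 to 0.091 for Cyp2c29, -0.024 to 1.06 for Cyp2c40, -0.070 to 0.18 for Cyp2d9, -0.013 to 0.063 for Cyp2e1, -0.0015 to 0.26 for Cyp2f2 and -0.14 to 0.017 for Cyp3a11. The causes were not tested. The count of genes with a range above 1 was 8 to 14 over the settings tried. Low signal limits the 14 genes below the lower quartile of level, among them Cyp2c40, Cyp2c65, Cyp2c66 and Cyp2d12.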

Other observations

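Probe sets of these families outside the 58 genes gave values of the same kind. A probe set assigned to both Cyp2c67 and Cyp2c68 stood at 12.13, 11.24 and 12.41 in Balb/c and 12.53, 12.36 and 12.16 in Balb/cBy, again lowest in Balb/c replicate 2. The pseudogene Cyp2c53-ps stood at 8.24, 8.28 and 10.08 in Balb/c and at 10.25, 9.98 and 8.68 in Balb/cBy, and the pseudogene Cyp2d37-ps at 9.41, 9.62 and 11.09 against 9.92, 9.70 and 10.28, highest in Balb/c replicate 3 like Cyp2d13. A further probe set of Cyp2f2 lay higher in Balb/cBy without overlap (8.58, 8.34 and 8.66 against 8.87, 8.97 and 8.75), which the set used for Cyp2f2 did not. A further probe set of Cyp2c29 peaked in Balb/c replicate 3 at 9.20, where its main set was level. Both probe sets shared by Cyp3a41a, Cyp3a41b, Cyp3a11 and Cyp3a44 had differences of -0.10 and -0.09.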
